A study of Rattus norvegicus with 6 samples.

Results

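The cell adhesion molecules by which Schwann cells contact each other and the axon were followed in the crushed rat sciatic nerve through 10 genes chosen by name: Ncam1, L1cam, Chl1, Cadm1, Cadm2, Cadm3, Cadm4, Cdh1, Cdh2 and Cdh19. They are 10 of the 30957 genes of the deposited mRNA table, and all 10 passed the filter on low counts. Sciatic nerve RNA came from 1-month-old Sprague-Dawley rats in 3 groups of 2 rats. The D4 and D7 rats had the left sciatic nerve clamped and were sampled on day 4 and day 7. The control rats were not clamped. The methods describe a control operation without the clamp and the labels call the tissue normal, so that control may stand for either. Each rat gave 1 library of unsorted sciatic nerve tissue, which the paper calls lesional in the injured groups. The letters a and b name the rats of a group without pairing them across groups. The control, D4 and D7 libraries held between 18727255 and 25350886 fragments counted on genes, and a member held between 237 and 17933 of them in a library.

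These genes belong to several families. The CADM proteins are immunoglobulin-type molecules that bind one another across the space between an axon and its Schwann cell, and in myelinated fibres Cadm4 on the Schwann cell meets Cadm3 on the axon along the internode. Classical cadherins bind their own kind in the presence of calcium and are tied to actin by catenins. Cdh1 (E-cadherin) joins the membrane layers of one myelinating Schwann cell to each other, Cdh2 (N-cadherin) serves contacts of immature Schwann cells, and Cdh19 is a cadherin of the Schwann cell lineage. Ncam1, L1cam and the close homologue of L1, Chl1, are immunoglobulin-type molecules of axons and of Schwann cells that do not form myelin. They take part in axon growth and bundling. The cell bodies of the sciatic axons lie outside the nerve, whereas Schwann cells, fibroblasts, endothelial cells and macrophages lie in it.

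Cadm3 and Cdh1, which stood high in the control nerve, were far lower on D4 and still low on D7. Chl1 and Cadm1 were 1.85-fold to 2.45-fold above control on both days. Ncam1, Cadm2 and Cdh2 were downregulated on D4 and did not pass both thresholds on D7, and Cadm4, L1cam and Cdh19 stayed under a 2-fold difference from control on both days. Levels between groups are given as CPM, the count of a gene relative to the total of its library, scaled with TMM factors, which correct each library for its composition. A gene was called a differentially expressed gene (DEG) when its adjusted p-value in edgeR's quasi-likelihood test was under 0.05 and its change was at least 2-fold. On D4, 6 of the 10 genes were DEGs, 1 upregulated and 5 downregulated. Among all 15195 genes tested, 21.9% were DEGs in that comparison, 11.2% upregulated and 10.7% downregulated. On D7, 3 of the 10 were DEGs, 1 upregulated and 2 downregulated, against 18.8% of all genes tested, 9.83% upregulated and 9.02% downregulated. With the adjusted p-value alone, 10 of the 10 passed on D4, where 44.2% of all genes did, and 6 passed on D7, where 37.5% did. The TMM-scaled CPM of the injured libraries lay outside those of the control libraries for 10 members on D4 and 8 on D7, against 76.2% and 71.9% of all genes tested. The median log2 fold change of the 10 genes was -1.09 on D4 and -0.12 on D7, beside -0.04 and 0.01 for all genes tested. Without TMM factors the median of all genes moved to 0.25 on D4 and 0.31 on D7, and the share of DEGs that were upregulated moved from 51.2% to 69.3% on D4 and from 52.1% to 70.4% on D7. No member changed its direction under that scaling, but 7 in place of 10 passed the adjusted p on D4, with L1cam, Cadm4 and Cdh19 no longer passing. Over the other alternatives that count was 2 in the test against a 2-fold change and otherwise 7 to 10. D4 and D7 were compared with the same 2 control libraries.

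**Figure D1:**
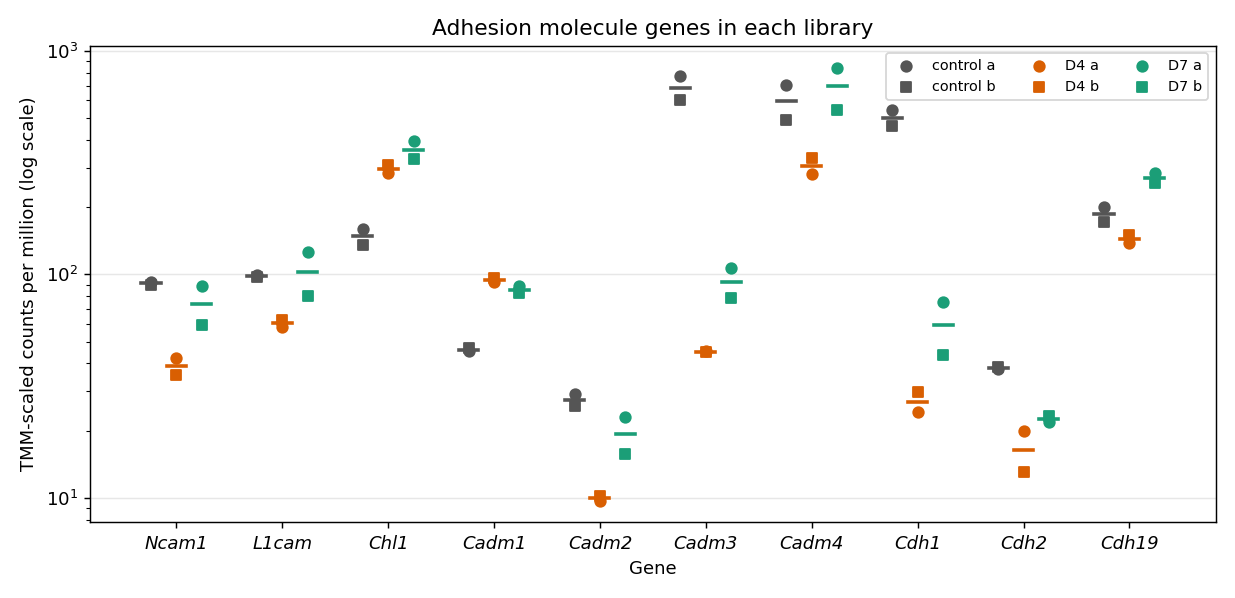
TMM-scaled CPM (log axis) of the 10 adhesion genes in each library, with circles for rat a, squares for rat b and a line at the mean of the 2 rats. Cadm3 and Cdh1 lay between 461 and 769 CPM in the control libraries and between 24.2 and 45.5 CPM on D4.

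The order of the genes within a library was read from the deposited FPKM values, which divide by gene length to compare genes. It therefore depends on the gene lengths used. In CPM, which does not divide by length, Cadm3 stood above Cadm4 in control a (769 and 707) and control b (601 and 493). In the control nerve Cadm4 stood first with 425 and 303 FPKM, followed by Cadm3 with 233 and 187 FPKM and Cdh1 with 106 and 92.8 FPKM. The spread of these 3 genes over the control libraries did not overlap. Cdh19 (39.5 and 34.6 FPKM) and Chl1 (38.0 and 33.1 FPKM) came next and overlapped each other. Ncam1 (13.7 and 13.6 FPKM) and Cadm1 (12.8 and 13.5 FPKM) lay close together above Cadm2 (12.3 and 11.1 FPKM) and L1cam (11.0 and 11.1 FPKM), and Cdh2 was lowest with 7.48 and 7.84 FPKM. On D4 the order was different. Cadm4 remained first with 209 and 247 FPKM, Chl1 was second with 83.1 and 90.4 FPKM, and Cdh19 and Cadm1 overlapped around their means of 35.1 and 33.1 FPKM. Cadm3 had moved behind these 4 with 17.1 and 16.8 FPKM, and Cdh1 lay among the lowest 5 genes with 5.86 and 7.24 FPKM. On D7 Cadm4 (624 and 410 FPKM), Chl1 (115 and 97.9 FPKM) and Cdh19 (68.7 and 63.3 FPKM) were the 3 highest and did not overlap. Cdh1 (18.2 and 10.7 FPKM), L1cam (17.2 and 11.1 FPKM) and Ncam1 (16.1 and 11.0 FPKM) overlapped on that day, so that their order could not be told from 2 rats.

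The CADM family was described from its most changed member. Cadm3 (13:91842333-91873096 on Rnor_6.0) was at 769 and 601 CPM in control a and b, at 45.5 and 44.7 CPM in D4 a and b, and at 106 and 78.2 CPM in D7 a and b. All 4 injured libraries lay below both controls, and the D7 libraries lay above the D4 libraries. The gene was 15.2-fold lower on D4 (log2 fold change -3.92, SE 0.20, edgeR adjusted p = 0.000134) and 7.43-fold lower on D7 (log2 fold change -2.89, SE 0.19, edgeR adjusted p = 0.000399). Cadm4 (1:81365138-81370109), which binds Cadm3 across the internode, had 707 and 493 CPM in control, 282 and 332 CPM on D4, and 842 and 546 CPM on D7. Its D4 libraries were below the controls, while the D7 and control libraries overlapped. The D4 difference passed the adjusted p but stayed under 2-fold (log2 fold change -0.97, SE 0.26, edgeR adjusted p = 0.0263). On D7 the log2 fold change was 0.21 with a 95% interval of -0.42 to 0.84 (edgeR adjusted p = 0.549), which includes both directions. Cadm4 passed both thresholds on D4 when control b was left out (log2 fold change -1.21).

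Cadm1 (8:52127399-52189722) went the other way. This molecule, also known from synapses and from epithelial and mast cells, had 45.4 and 46.7 CPM in control, 92.8 and 96.6 CPM on D4, and 88.4 and 82.2 CPM on D7. The control values lay below every injured library. It rose on D4 (log2 fold change 1.04, SE 0.09, edgeR adjusted p = 0.000453), and on D7 its log2 fold change of 0.89 (SE 0.09, edgeR adjusted p = 0.00108) was under 2-fold. Without TMM factors the D7 value was 1.18 and passed. Cadm2 (11:4174881-4397361), a CADM molecule of axons and neurons, was the least abundant member of the family by FPKM in every library, and had 29.3 and 25.9 CPM in control, 9.73 and 10.2 CPM on D4, and 22.9 and 15.7 CPM on D7. It fell on D4 (log2 fold change -1.47, SE 0.20, edgeR adjusted p = 0.00224). The D7 libraries lay between the other groups, with a log2 fold change of -0.51 against control (SE 0.20, edgeR adjusted p = 0.0850).

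The make-up of the CADM family followed from these values. By FPKM, Cadm3 held 34.1% and 36.3% of the summed CADM level in control a and b, 6.46% and 5.55% in the D4 rats, and 5.63% and 6.22% in the D7 rats. Cadm4 held 62.2% and 58.9% in control, 79.4% and 81.5% on D4, and 88.3% and 86.0% on D7. For Cadm1 the share was 1.87% and 2.62% in control, 12.3% and 11.2% on D4, and 4.36% and 6.08% on D7. These shares, taken within each library, depend on the gene lengths behind FPKM, describe 2 rats per group and were not tested.

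**Figure D2:**
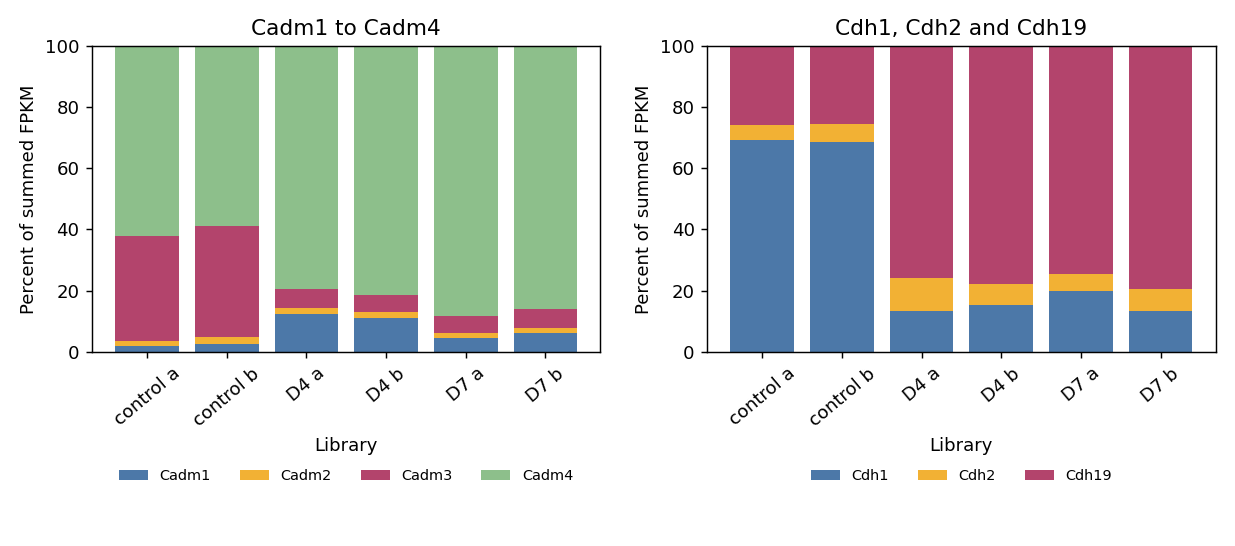
Share of each gene in the summed FPKM of Cadm1 to Cadm4 (left) and of Cdh1, Cdh2 and Cdh19 (right), in percent, with 1 bar for each library. Cdh1 made up 69.4% and 68.6% of the 3 cadherins in control and no more than 19.8% in an injured library, where Cdh19 made up at least 74.5%.

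Among the cadherins, Cdh1 (19:38768467-38838395) changed most. It was at 542 and 461 CPM in control, 24.2 and 29.8 CPM on D4, and 75.3 and 43.5 CPM on D7. Both injured groups lay far below control, and D7 a stood at 1.73 times D7 b. The gene was 18.6-fold lower on D4 (log2 fold change -4.21, SE 0.30, edgeR adjusted p = 0.000250) and 8.44-fold lower on D7 (log2 fold change -3.08, SE 0.28, edgeR adjusted p = 0.000830). The epithelial genes Epcam, Krt8, Krt18, Krt5 and Esrp1 together held 3.80 to 7.02 CPM in every library. Of these, Krt18 and Esrp1 were at 0 counts in both control libraries. Krt5 was called lower on both days, from 53 and 25 counts in control to 1 or 0, and Epcam was called higher on both days, from 0 and 8 counts to 94 and 133 on D4 and 75 and 59 on D7.

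Cdh2 (18:8146971-8360684) had 37.6 and 38.5 CPM in control, 19.8 and 13.0 CPM on D4, and 21.8 and 23.4 CPM on D7. All injured libraries were below the controls. It fell on D4 (log2 fold change -1.21, SE 0.20, edgeR adjusted p = 0.00475), and on D7 its log2 fold change was -0.75 (SE 0.20, edgeR adjusted p = 0.0297), under 2-fold. The D4 call was lost without TMM factors (-0.93) and without D4 b (-0.94). Cdh19 (13:32344966-32427177) kept closer to its control level, with 201 and 172 CPM in control, 138 and 151 CPM on D4, and 283 and 257 CPM on D7. Its D4 libraries lay just below the controls and its D7 libraries above them. The log2 fold change was -0.37 on D4 (SE 0.12, edgeR adjusted p = 0.0442) and 0.54 on D7 (SE 0.12, edgeR adjusted p = 0.0149), both under 2-fold. The D4 difference was -0.08 without TMM factors, its FPKM values overlapped those of control, and it passed the adjusted p in few of the alternatives, with DESeq2 and without control b. As shares of the summed cadherin FPKM, Cdh1 held 69.4% and 68.6% in control, 13.3% and 15.4% on D4, and 19.8% and 13.4% on D7. Cdh19 held 25.7% and 25.6%, then 75.7% and 77.8%, then 74.5% and 79.3%. Cdh19 was thus the most abundant of the 3 cadherins per length in each injured library and Cdh1 in each control library.

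Ncam1, L1cam and Chl1 differed from one another. Chl1 (4:70252366-70330803), which acts in neurite growth, had 160 and 136 CPM in control, 283 and 308 CPM on D4, and 393 and 330 CPM on D7. Every injured library was above both controls. On D4 the fold change of 1.999 lay just under the threshold (log2 fold change 0.999, SE 0.13, edgeR adjusted p = 0.00213), and on D7 Chl1 was upregulated (log2 fold change 1.29, SE 0.14, edgeR adjusted p = 0.00124). Ncam1 (8:53839098-53901358), whose protein carries polysialic acid on growing axons, had 92.8 and 89.7 CPM in control, 42.4 and 35.6 CPM on D4, and 88.5 and 59.3 CPM on D7. It fell on D4 (log2 fold change -1.23, SE 0.20, edgeR adjusted p = 0.00446), a call that was lost without TMM factors (-0.94). On D7 its log2 fold change was -0.30, with a 95% interval of -0.78 to 0.18 (edgeR adjusted p = 0.266). L1cam (X:156909913-156928057), which binds its own kind and links to ankyrin, had 99.0 and 97.6 CPM in control, 58.4 and 62.2 CPM on D4, and 126 and 80.1 CPM on D7. The D4 libraries were below the controls and the D7 libraries lay on either side of them. The log2 fold change was -0.70 on D4 (SE 0.21, edgeR adjusted p = 0.0347) and 0.07 on D7, with a 95% interval of -0.43 to 0.56 (edgeR adjusted p = 0.821).

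**Figure D3:**
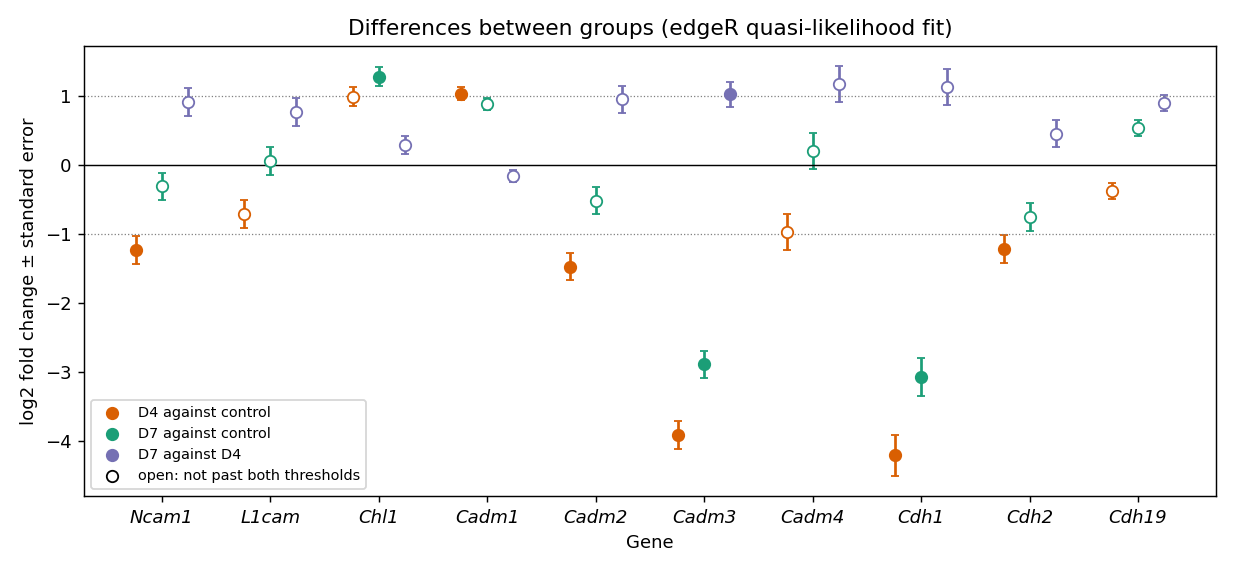
Log2 fold changes with standard errors from edgeR for each injured group against control and for the later against the earlier day, with filled points for changes past both thresholds and dotted lines at 2-fold. Chl1 and Cadm1 lie above 0 against control on both days, and Cadm3 (-3.92 and -2.89) and Cdh1 (-4.21 and -3.08) lie lowest.

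The direct comparison of D7 with D4 asked whether the level at the later day had moved from that at the earlier. The TMM-scaled CPM of the groups did not overlap for 10 of the 10 genes, higher on D7 for every gene but Cadm1, and 60.6% of all genes tested did not overlap. The median log2 difference of the 10 genes was 0.91, beside 0.01 for all genes tested. Cadm3 alone was a DEG, upregulated from D4 to D7 (log2 fold change 1.03, SE 0.19, edgeR adjusted p = 0.0403), against 2.18% of all genes tested, 1.68% upregulated and 0.494% downregulated. Cdh19 passed the adjusted p alone (log2 fold change 0.91, SE 0.12, edgeR adjusted p = 0.0212), where 4.67% of all genes did. That pass was lost without D4 a, without D4 b, without D7 a and in the test against a 2-fold change. The other differences were 1.18 for Cadm4 (edgeR adjusted p = 0.0626), 1.14 for Cdh1 (edgeR adjusted p = 0.0710), 0.96 for Cadm2 (edgeR adjusted p = 0.0553), 0.92 for Ncam1 (edgeR adjusted p = 0.0601) and 0.77 for L1cam (edgeR adjusted p = 0.0906). Those of Cdh2 (0.46, edgeR adjusted p = 0.227), Chl1 (0.29, edgeR adjusted p = 0.243) and Cadm1 (-0.15, edgeR adjusted p = 0.348) were smaller. The calls of this comparison changed with the libraries in the fit. Over 14 alternatives the log2 fold change ran from 0.78 to 1.23 for Cadm3 and from 0.83 to 0.97 for Cdh19. Where leaving out a library left no gene called at all, a lost member call does not show dependence on that rat. No member was called without D4 a, without D4 b or without D7 a, where 0, 0 and 99 genes were called in all, against 331 with every library. Without D7 b, 469 genes were called, 61.4% of them upregulated, and 6 members were among them, all upregulated: Ncam1, L1cam, Cadm2, Cadm3, Cadm4 and Cdh1. With DESeq2, 505 genes were called, 62.8% of them upregulated beside 77.3% in edgeR, and the members called were Cadm4 and Cdh1. By the adjusted p alone, 7 members passed in DESeq2, beside 2 in edgeR. Cadm3 was called in 9 of 14 alternatives and Cadm4 in 7, the latter also with no low-count filter, with only the groups compared and without either control rat.

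The D7 rats were unequal in these genes. D7 a stood above D7 b for 9 of the 10 genes, with ratios between 0.933 and 1.73, and for 49.4% of all genes tested. The summed CPM of the myelin genes Mbp, Prx, Pmp22 and Mag was 5484 in D7 a and 3401 in D7 b, and that of the adipocyte genes Adipoq, Plin1, Lep and Cidec was 4.41 and 351. In control, a stood above b for 8 of the 10 genes, with ratios between 0.972 and 1.44, and for 52.5% of all genes tested, and the myelin genes summed to 39695 and 26186 CPM. On D4, a stood above b for 3 of 10 and for 47.4% of all genes tested. The part of these differences between rats in the results was not tested.

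The tissue was checked with marker genes, since the members were measured in unsorted nerve tissue. In a bulk sample, fewer cells of a type and less RNA per cell cannot be told apart. The Schwann cell genes Sox10, S100b and Erbb3 summed to 2609 to 3163 CPM in control, 2667 to 2887 CPM on D4, and 2841 to 3438 CPM on D7. The genes in this sum differed: Erbb3 was called higher on both days (log2 fold changes 1.13 and 1.44), while S100b was at -0.81 and -0.96 (edgeR adjusted p = 0.00821 and 0.00571), under 2-fold. The lineage factor Sox10 was at 357 and 257 CPM in control, 298 and 347 CPM on D4, and 546 and 403 CPM on D7. The myelin genes fell from 26186 to 39695 CPM in control to 1069 to 1089 CPM on D4, with 4 of 4 called lower, and stood at 3401 to 5484 CPM on D7, with 3 of 4 called lower. The repair Schwann cell genes Jun, Ngfr, Gdnf, Shh and Olig1 summed to 116 CPM in each control library, 2365 to 2527 CPM on D4 and 1440 to 1520 CPM on D7, with 4 of 5 called higher on both days. Macrophage genes stood at 193 to 212, 662 to 673 and 425 to 534 CPM, with 5 of 5 called higher on D4 and 4 of 5 on D7. Proliferation genes stood at 31.7 to 67.3, 812 to 956 and 544 to 582 CPM, with 5 of 5 called higher on both days. Fibroblast genes stood at 55004 to 59709, 33588 to 37271 and 28920 to 31883 CPM, sums made up mostly of the collagens Col1a1 and Col3a1. Of the 5 fibroblast genes only Col1a1 was called, lower on D7 (log2 fold change -1.05), and Pdgfra was at 0.68 on D4 and 0.49 on D7. Endothelial genes stood at 360 to 413, 198 to 256 and 144 to 201 CPM, with 3 of 4 endothelial genes called lower on both days. T and NK cell genes stood at 0.618 to 0.904, 2.48 to 3.12 and 8.81 to 10.3 CPM, with 2 of 5 called higher on D4 and 5 of 5 on D7. Skeletal muscle genes summed to between 5.21 and 41.9 CPM, and of these Myh7 was called lower on both days, from 320 and 160 counts in control to 5 or fewer in each injured library. Perineurial genes summed to 542 to 709 CPM in control and 263 to 318 CPM in the injured libraries. In that list Cldn1 was called lower on both days and Slc2a1 on D7, while Moxd1 was called higher on both days, from 14 and 0 counts in control to between 47 and 146. Adipocyte genes stood at 888 to 1098, 123 to 252 and 4.41 to 351 CPM, with 0 of 4 called on either day. Neuronal genes summed to 13.6 to 22.4 CPM in control, 3.08 to 7.39 CPM on D4 and 89.2 to 125 CPM on D7. The D7 sum was mostly Nefm (86.2 and 122 CPM), the one gene of the list called higher on that day, while Snap25 (log2 fold change -3.63) and Nefh (-2.75) were called lower. The part of these cell types in the levels of the adhesion genes was not tested.

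Sequence upstream of the members was read to show the starts of genes that moved differently. RefSeq promoter windows on GRCr8, from 250 bases before to 50 after the gene start, matched 5 of the 10 members: Cadm2, Cadm3, Cadm4, Cdh19 and Chl1. These coordinates belong to another build than the gene spans above. Of 4 motifs searched on both strands, namely the E-box written CACCTG, the AP-1 site written TGANTCA, the SOX site written ACAAAG and the TATA box written TATAAA, Cadm3, Cadm4, Chl1 and Cdh19 each held 1 and Cadm2 held none. Shown are Cadm3, which fell most in its family, its binding partner Cadm4, and Chl1, which rose. Also shown is Cdh19, which differed least from control among the member cadherins. The windows lie at chr13:88349669-88349968 (minus strand) for Cadm3, chr1:89202839-89203138 (plus strand) for Cadm4, chr4:137847645-137847944 (plus strand) for Chl1 and chr13:28533704-28534003 (minus strand) for Cdh19. They are written 5′ to 3′ in lower case with the motif found in capitals.
Cadm3: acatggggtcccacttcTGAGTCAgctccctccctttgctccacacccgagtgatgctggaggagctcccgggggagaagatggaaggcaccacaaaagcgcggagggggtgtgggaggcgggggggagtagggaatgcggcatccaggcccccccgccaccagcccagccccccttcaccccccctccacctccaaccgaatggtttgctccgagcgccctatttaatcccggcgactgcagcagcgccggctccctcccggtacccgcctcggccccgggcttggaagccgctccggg
Cadm4: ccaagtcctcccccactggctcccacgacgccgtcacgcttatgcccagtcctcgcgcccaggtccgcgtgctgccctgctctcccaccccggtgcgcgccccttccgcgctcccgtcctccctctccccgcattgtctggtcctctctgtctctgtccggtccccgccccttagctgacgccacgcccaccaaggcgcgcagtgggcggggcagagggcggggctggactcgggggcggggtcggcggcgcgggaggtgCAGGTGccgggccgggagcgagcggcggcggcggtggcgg
Chl1: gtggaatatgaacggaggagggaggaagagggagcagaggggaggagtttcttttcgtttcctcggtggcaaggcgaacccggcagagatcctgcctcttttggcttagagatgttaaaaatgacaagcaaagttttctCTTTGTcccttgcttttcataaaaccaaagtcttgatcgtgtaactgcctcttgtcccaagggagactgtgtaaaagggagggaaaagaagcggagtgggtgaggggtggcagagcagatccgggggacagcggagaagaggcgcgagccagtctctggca
Cdh19: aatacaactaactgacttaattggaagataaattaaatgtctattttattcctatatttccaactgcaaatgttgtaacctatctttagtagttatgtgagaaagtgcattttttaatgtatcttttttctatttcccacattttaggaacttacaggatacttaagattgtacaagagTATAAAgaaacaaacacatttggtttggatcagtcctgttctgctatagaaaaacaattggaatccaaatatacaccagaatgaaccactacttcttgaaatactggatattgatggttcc
Counted from the gene start, the match began at -233 in Cadm3 (TGAGTCA), at 11 in Cadm4 (CAGGTG, the E-box on the other strand), at -111 in Chl1 (CTTTGT, the SOX motif on the other strand) and at -71 in Cdh19 (TATAAA). Among 33469 promoter windows of this length, 7.3% held the AP-1 motif, 18.8% the E-box, 18.8% the SOX motif and 14.2% the TATA box. The windows differed in base composition. Cadm4 had 37 CpG dinucleotides and 76.0% G or C, Cadm3 had 20 and 68.7%, Cadm2 had 23 and 67.0%, Chl1 had 11 and 52.3%, and Cdh19 had 0 and 30.0%, beside medians of 7 and 51.7% over all windows. A match is a description of letters and not a bound site.

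Binding partners and relatives were followed from lists of 48 genes, of which 43 matched the table and 41 were tested. On D4, 1 was upregulated and 9 downregulated (median log2 fold change -0.44), and on D7, 1 was upregulated and 8 downregulated (median -0.24). Of all genes tested, 21.9% and 18.8% were DEGs on these days, with 10.7% and 9.02% downregulated. The polysialyltransferase St8sia2, which adds polysialic acid to Ncam1, was at 17.8 and 11.1 CPM in control, 0.985 and 0.702 CPM on D4, and 0.892 and 0.891 CPM on D7. It was lower on D4 (log2 fold change -4.10, SE 0.34, edgeR adjusted p = 0.000409) and on D7 (log2 fold change -4.01, SE 0.35, edgeR adjusted p = 0.000705). Of the NCAM and L1 relatives and their binding partners, 14 were tested. Nfasc, an L1 family molecule of the node and of the Schwann cell paranode, was at 988 and 804 CPM in control, 110 and 116 CPM on D4, and 93.1 and 57.6 CPM on D7, downregulated on both days (log2 fold changes -2.99 and -3.57). Nrcam, an L1 family molecule of the node, was at 172 and 135 CPM in control, 347 and 377 CPM on D4, and 135 and 137 CPM on D7. It was upregulated on D4 (log2 fold change 1.24, SE 0.13, edgeR adjusted p = 0.000962), and on D7 its log2 fold change was -0.18 (edgeR adjusted p = 0.331). Ncam2, a relative of Ncam1, was at 16.3 and 10.4 CPM in control, 2.30 and 3.14 CPM on D4, and 14.3 and 9.15 CPM on D7, downregulated on D4 (log2 fold change -2.30) and at -0.19 on D7 (edgeR adjusted p = 0.660). Ank2, an ankyrin that anchors L1 family molecules, was downregulated on D4 (log2 fold change -1.25, a call lost without TMM factors at -0.96) and at -0.99 on D7. Ezr (ezrin), which links membrane proteins to actin, was upregulated on D7 (log2 fold change 1.13) and at 0.84 on D4, the D7 call being lost without control b.

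**Figure D4:**
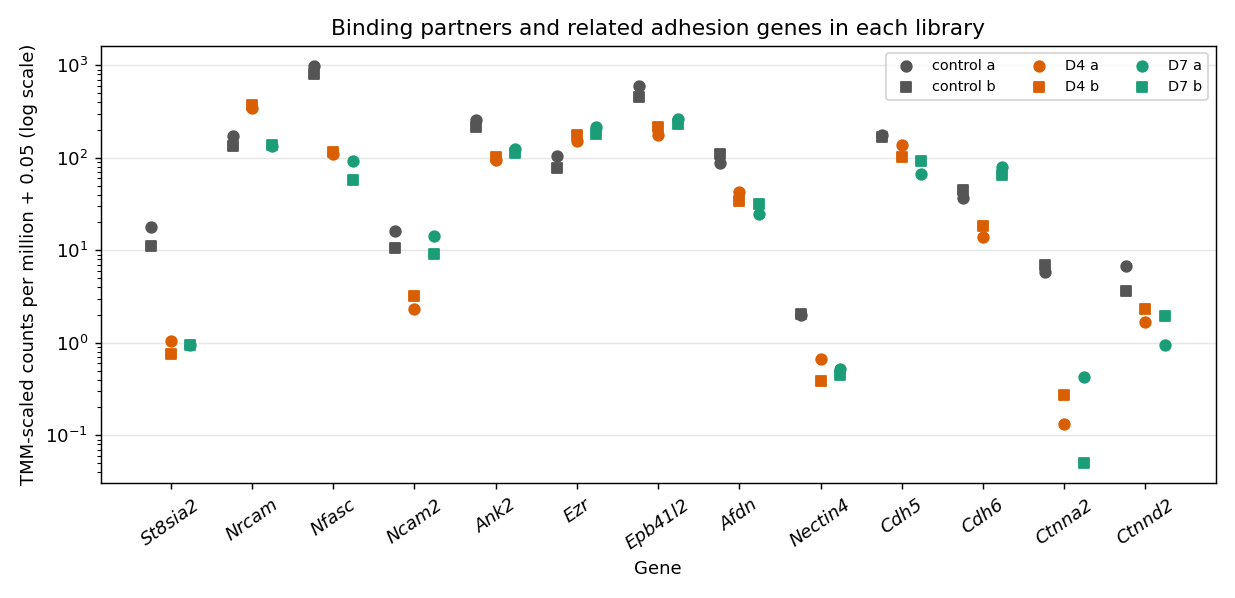
TMM-scaled CPM plus 0.05 (log axis) of the 13 partner and related genes named in the text by the rule, in each library, with circles for rat a and squares for rat b. St8sia2, Nfasc, Ank2, Epb41l2, Afdn, Nectin4, Cdh5, Ctnna2 and Ctnnd2 lie below both controls in all 4 injured libraries, and Nrcam stands above the other groups on D4.

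Of the CADM scaffold partners, 1 of 7 was a DEG on each day, and of the nectins and related genes, relatives of the CADM molecules, 2 of 5 were. Epb41l2, a band 4.1 protein of the family that binds CADM tails, was at 592 and 457 CPM in control, 176 and 217 CPM on D4, and 263 and 230 CPM on D7, downregulated on both days (log2 fold changes -1.42 and -1.09). The D7 call was lost without TMM factors (-0.79), without control a and without D7 b. It was the only one of 7 scaffold partners called on either day. Afdn (afadin, listed as Mllt4), which ties nectins to actin, was at 87.1 and 110 CPM in control, 42.8 and 33.8 CPM on D4, and 24.6 and 31.9 CPM on D7 (log2 fold changes -1.36 and -1.80, downregulated on both days). Nectin4 was also downregulated on both days (log2 fold changes -2.05 and -2.17), from 38 and 33 counts in control to between 8 and 15 counts in the injured libraries, and the calls were lost without D4 b on D4 and without either D7 rat on D7. The remaining 3 nectins were not called.

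Of the catenins, which hold cadherins to actin, those used by most cells stayed under 2-fold. Ctnnb1 (beta-catenin), at 400 and 445 CPM in the control libraries, had log2 fold changes of 0.64 on D4 and 0.56 on D7, under 2-fold, and Ctnna1 (alpha-catenin), Ctnnd1 (p120) and Jup (plakoglobin) were not called on either day. The neural catenins Ctnna2 and Ctnnd2 had few counts. Ctnna2 held 111 and 115 counts in control, 2 and 6 on D4, and 8 and 0 on D7 (log2 fold changes -5.30 and -5.00, downregulated on both days). The D7 value rests on few counts and was -4.05 without D7 b and -10.07 without D7 a. Ctnnd2 was downregulated on D7 (log2 fold change -1.90, SE 0.49, edgeR adjusted p = 0.0272) and at -1.40 on D4 (edgeR adjusted p = 0.0540), and its D7 call was lost with only the groups compared and without control a, D4 a, D4 b or D7 a. Its D4 value passed in 7 of 13 alternatives. Of the other cadherins, 8 were tested. Cdh6 was at 36.6 and 45.3 CPM in control, 13.9 and 18.2 CPM on D4, and 79.8 and 64.9 CPM on D7, downregulated on D4 (log2 fold change -1.35) and at 0.82 on D7. Cdh5, the cadherin of endothelial cells, was downregulated on D7 (log2 fold change -1.12) beside the endothelial genes given above, a call lost without TMM factors (-0.82) and without D7 a. Between D4 and D7, 3 of the 41 partner and related genes tested were upregulated and 1 was downregulated (median log2 fold change -0.05). Of all genes tested, 2.18% were DEGs in that comparison, 1.68% upregulated and 0.494% downregulated. Cdh6 (log2 fold change 2.17, edgeR adjusted p = 0.0117) and Ncam2 (2.10, edgeR adjusted p = 0.0334) were upregulated and Nrcam was downregulated (-1.41, edgeR adjusted p = 0.0117). Alcam, an immunoglobulin-type relative, was upregulated as well (1.18, edgeR adjusted p = 0.0280) and is named because it completes that count, after its value was seen. Each of these 4 calls was lost without D4 a and without D4 b. Those of Ncam2, Nrcam and Alcam were also lost without D7 a. Over 14 alternatives the log2 fold change ran from 1.99 to 2.38 for Cdh6 and from 1.74 to 2.39 for Ncam2. For Nrcam it ran from -1.47 to -1.35 and for Alcam from 0.90 to 1.40.

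Long noncoding RNAs counted at the same loci were examined beside the genes. The span of a member was overlapped by 7 lncRNAs, at Ncam1, Cadm1, Cadm3 and Cdh2, and 4 of them were tested. Of these, 1 was called on D4 and 1 on D7, each downregulated, where 10.1% and 5.79% of the 14077 lncRNAs tested were called in either direction. Between D7 and D4, edgeR and DESeq2 called 0 of the 4, where edgeR called 0.249% of all lncRNAs, and 1 of the 4 had an unadjusted edgeR p under 0.05, beside 12.5% of all lncRNAs. On D4 and D7 these were 3 and 2 of the 4, beside 28.5% and 25.5%. The one called on both days, NONRATT008996.2 (13:91862641-91863156), lies inside Cadm3. It held 81 and 58 counts in control, 6 and 9 on D4, and 12 and 13 on D7, below control in every injured library. Its log2 fold change was -3.35 on D4 (SE 0.35, edgeR adjusted p = 0.00634) and -2.55 on D7 (SE 0.33, edgeR adjusted p = 0.0156). The D4 call was lost without D4 a, and the D7 call without control a, without D7 a and without D7 b. The lncRNA NONRATT027659.2 inside Cadm1 held 28 and 47 counts in control, 86 and 84 on D4, and 101 and 75 on D7, with log2 fold changes of 1.01 (edgeR adjusted p = 0.137) and 1.12 (edgeR adjusted p = 0.127). NONRATT028531.2, at the edge of Ncam1, held 236 and 156 counts in control, 135 and 127 on D4, and 221 and 220 on D7. Whether the counting used the strand is not given in the sources used here, so fragments of a lncRNA and of the gene around it cannot be told apart.

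The genes with the most similar profile were sought for the 7 members called in at least 1 comparison. Likeness was the root mean square difference of log2 CPM over the 6 libraries, each gene centred on its own mean, among 12991 genes. Cdh1 was most like Cadm3, at a difference of 0.19, followed by Fez1 at 0.22. Cadm3 was most like Rhobtb3 (0.05) and Fdft1 (0.14), an enzyme of sterol synthesis. Rhobtb3 had 745 and 585 CPM in control, 46.1 and 47.8 CPM on D4, and 104 and 79.7 CPM on D7. Chl1 was most like Plekha5 (0.05) and Znhit2 (0.07), and Cadm1 was most like Tfdp1 (0.03), a partner of E2F factors, and Palb2 (0.04), a DNA repair gene. Ncam1 stood nearest to Caskin1 (0.11) and Sfi1 (0.12), Cadm2 to Apc2 (0.07) and Kcnrg (0.10), and Cdh2 to Exoc6 (0.12) and AABR07036010.1 (0.13). These genes were chosen for their likeness over 6 libraries, and no test was made of it.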

How the data were processed

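RNA of sciatic nerve from 6 rats was sequenced. Per the submitters' processing notes and the methods, the authors mapped reads with HISAT2 2.0.4 to Rnor_6.0 and assembled and quantified transcripts with StringTie 1.3.0. The deposited counts are whole fragment counts per gene or lncRNA transcript, not normalized. The deposited FPKM values were derived from them by the authors and carry no TMM factor, so they served for levels and shares within a library, and between groups only as an alternative. Strand use in counting is not given in the sources used here.

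Counts were tested with edgeR 4.0.16 in R 4.3.3 (filterByExpr, TMM factors, quasi-likelihood, 1 fit of the 6 libraries, Benjamini-Hochberg adjustment over all genes tested), with SE as the absolute log2 fold change over the square root of F. The procedure was also run on simulated counts in which few genes were changed. Such counts cannot show how it scales libraries when many genes differ. The members, lists, motifs and tests were chosen with earlier results of these data known. Named were all members, in each list the called genes of largest change (up to 3 higher and 3 lower at either day) and every gene of a list of 2 that matched, and for each called member the 2 genes of most similar profile with a mean FPKM of at least 1. Symbols were matched directly or through RefSeq synonyms; those unmatched (Pvr, Mpp1, St8sia4, Foxd3, Pecam1, Myh4) or fitting several gene identifiers (Ctnna3, Cask) were not analysed here. Further marker genes of the Schwann cell and myelin lists are not reported here, and the sums of those lists leave them out. Alternatives were DESeq2 1.42.0, no TMM factors, a minimum of 10 counts in all 6 libraries or no filter on low counts, only the groups compared, the letter as a block, a test against a 2-fold change, and leaving out each library. Python 3.11.15, pandas 2.3.3 and matplotlib 3.10.9 were also used.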

Additional observations from a re-analysis of the deposited data

Results flagged for a closer look

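Of the adhesion genes, 2 differed between D4 and D7 in the direct edgeR test. Cadm3 was low on both days and was higher on D7 than on D4 by 1.03 on the log2 scale (edgeR adjusted p = 0.0403), with both D7 rats above both D4 rats. The call was kept in 9 of 14 alternatives. It was not made without D4 a (1.04), without D4 b (1.02), without D7 a (0.78) or in the test against a 2-fold change. With DESeq2 the value of 0.99 was just under 2-fold, while the adjusted p passed (DESeq2 adjusted p = 3.01e-05). Cdh19 was higher on D7 than on D4 by 0.91 (edgeR adjusted p = 0.0212), under 2-fold. Over the alternatives this difference ran from 0.83 to 0.97. Cdh19 did not pass the adjusted p without D4 a, without D4 b, without D7 a or in the test against a 2-fold change. In TMM-scaled CPM its D4 libraries lay below both controls and its D7 libraries above both, while in FPKM the D4 and control libraries overlapped, and without TMM factors the D4 difference was -0.08. The part of the unequal D7 rats in these differences was not tested.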

How the results depend on the processing

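With 2 rats per group the fit leaves 3 residual degrees of freedom. The tests and 95% intervals of the members used 6.09, because edgeR shares information on the spread between genes. Leaving out a library leaves 1 rat in its group, which is assumed to vary like the rest. Each member held at least 237 counts in every library. The parts of counting error and of the spread between rats in the precision were not separated. Of the alternative fits of the members with all libraries in, none reversed a direction. The cause of the following shifts was not tested. DESeq2 called 505 genes between D7 and D4, where edgeR called 331. The test against a 2-fold change called 1683 genes on D4, 1217 on D7 and 37 between D7 and D4, fewer by its construction, and 2, 2 and 0 members, with Cadm3 and Cdh1 called on both days. Members called between D7 and D4 numbered 2 with DESeq2, with no low-count filter and with only the groups compared. On D4 the members called numbered between 5 and 7 under every other alternative, and Chl1 was added in most of them. Leaving out each library gave 5 to 7 members on D4, 3 on D7 and 0 to 6 between D7 and D4, and 2540 to 3437, 2284 to 2859 and 0 to 469 genes. The lncRNA at Cadm3 was not tested with at least 10 counts in every library, which left 0 called on both days, and the 2-fold test left 0 on D7. The count was 0 to 1 on D4 and on D7 over the left-out libraries. The small D7 differences of Cadm4 and L1cam changed sign: Cadm4 was at -0.03 without control b and -0.11 without D7 a and reached 0.49 without control a, and L1cam was at -0.27 without D7 a and 0.35 without D7 b. Those of Ncam2 and Nrcam, not called on D7, turned to 0.10 and 0.12 without TMM factors, and ran from -0.52 to 0.17 and from -0.34 to 0.0063 over the left-out libraries. As ratios of FPKM, 12 of 30 member changes differed from those of TMM-scaled CPM by more than the spread between rats, with the direction kept. With the replicate block, 3281, 2827 and 248 genes and 7, 3 and 1 members were called, and Ncam2 lost its call between D7 and D4. The a minus b differences of the groups correlated at 0.00, 0.17 and -0.11, and the letters do not pair rats. Exchanging the D4 letters, an alternative chosen after seeing the data, gave 334 genes and 3 members between D7 and D4.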
